A study of Homo sapiens with 18 samples.

Results

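Replicate spheroid cultures of the breast cancer line MDA-MB-231 differed in how strongly they expressed the genes of dividing cells, whatever their JAG1 status. To describe this difference, each of the 18 libraries was given a growth score, which is the mean of the log2(CPM + 1) values of MKI67, TOP2A, CCNB1, CDK1, BUB1 and PLK1 after each gene had been centred on the mean of its condition (CPM, read counts scaled to the normalized library size by the authors). A score of 1 thus stands for marker levels about 2-fold above the mean of the condition. Of the 21411 genes in the table, 12797 genes besides the 6 score genes exceeded 1 CPM in 9 or more of the 18 libraries. From these, 143 genes that rose and 14 genes that fell with the score within conditions were selected, at an FDR below 0.05 and a slope beyond a 1.5-fold change per unit of score. The 157 genes are 1.12% and 0.109% of the genes tested, in the order rising and falling. Because they were chosen by these slopes, the slopes are given below as a description and not as a test.

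MDA-MB-231 is a triple-negative, mesenchymal-like line, and the study used it to ask what the Notch ligand Jagged1, encoded by JAG1, does in tumor cells and to the surrounding matrix. Cells were seeded at 50000 per well in Matrigel, a basement membrane extract (2 mg/ml), and RNA was taken from the spheroids after 7 days. Each of the 6 conditions had 3 replicates that the labels call biological, and no label gives a culture date or a sequencing batch. Messenger RNA was sequenced with a stranded kit. Jag1WT was the unedited line. Jag1KO was a mixture of single-cell clones of that line with JAG1 edited by Cas9. Jag1KO + rescue were these edited cells carrying a Jagged1 plasmid, and Jag1KO + ctrl the edited cells carrying the empty plasmid, both kept under G418 selection. siCtrl and siJag1 were unedited cells transfected before seeding with a nontargeting siRNA or with siRNA against Jagged1. Jag1WT, siCtrl and siJag1 are called parental-derived below, and the 3 conditions with edited cells clone-derived.

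A dividing cell copies its DNA in S phase and then builds the spindle, kinetochores and contractile ring of mitosis. Many of the genes for these last steps are switched on together in G2 by the FOXM1, B-MYB and MuvB factors and are switched off together in resting cells by the DREAM complex, while the S phase genes are driven by E2F factors. In a spheroid, cells at the rim are usually better supplied than those in the core, so that cycling, resting and hypoxic cells can be present in the same culture. In bulk RNA, a change in the share of cycling cells and a change in the RNA of each cycling cell cannot be told apart.

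The DREAM and MuvB complexes bind a promoter element called CHR, and NF-Y binds CCAAT boxes. The following stretches of 120 bases end at the last base before the annotated start (RefSeq, GRCh38.p14, read 5′ to 3′ along the gene), with CHR (TTTGAA or TTCGAA) and CCAAT in capitals, either as such or as their reverse complement on the other strand. The first of them is that of a score gene, the next 4 are those of rising genes with large slopes that hold both elements within this stretch, and the last 2 are those of the falling genes with the largest slopes and a promoter in the reference.
PLK1 at chr16:23678769-23678888 on the plus strand: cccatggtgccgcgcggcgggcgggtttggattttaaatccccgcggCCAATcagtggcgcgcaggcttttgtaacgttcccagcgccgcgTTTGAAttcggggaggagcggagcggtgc
DLGAP5 at chr14:55191586-55191705 on the minus strand: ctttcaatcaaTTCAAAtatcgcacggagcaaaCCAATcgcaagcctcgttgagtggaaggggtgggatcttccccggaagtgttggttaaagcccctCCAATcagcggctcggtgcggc
PRR11 at chr17:59155626-59155745 on the plus strand: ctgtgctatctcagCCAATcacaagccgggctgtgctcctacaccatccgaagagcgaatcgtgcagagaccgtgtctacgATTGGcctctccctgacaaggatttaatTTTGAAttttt
CCNB2 at chr15:59105026-59105145 on the plus strand: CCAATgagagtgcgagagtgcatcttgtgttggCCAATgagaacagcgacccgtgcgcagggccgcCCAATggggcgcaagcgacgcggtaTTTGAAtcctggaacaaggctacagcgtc
HJURP at chr2:233854536-233854655 on the minus strand: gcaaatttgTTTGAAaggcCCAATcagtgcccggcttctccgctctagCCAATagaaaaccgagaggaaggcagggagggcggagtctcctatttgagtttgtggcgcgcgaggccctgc
MMP10 at chr11:102780629-102780748 on the minus strand: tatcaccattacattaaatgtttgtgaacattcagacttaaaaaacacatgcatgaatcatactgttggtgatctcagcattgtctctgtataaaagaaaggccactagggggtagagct
HSPA1A at chr6:31815423-31815542 on the plus strand: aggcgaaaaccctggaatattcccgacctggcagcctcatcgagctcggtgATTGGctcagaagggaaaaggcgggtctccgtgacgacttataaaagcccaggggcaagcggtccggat
In PLK1, which encodes a kinase of mitotic entry, the CHR began 29 bases before the start, and in CCNB2 it also began 29 bases before the start. MMP10 had neither element in its stretch, and HSPA1A had a single CCAAT box.

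Over the 250 bases before the start, a CHR was found in 43 of the 117 rising genes with a promoter in the reference (36.8%), in 0 of 10 falling genes and in 9.70% of the 9942 genes tested that had one. CCAAT was found in 61.5% of the rising genes, in 4 of 10 falling genes and in 35.6% of all. Both were present in 29.9% of the rising genes and in 3.96% of all, and 4 of the 6 score genes held both. An E2F element (TTTGGCGC, TTTCCCGC, TTTGGCGG or TTTCGCGC) was found in 8.55% of the rising genes, in 0 of 10 falling genes and in 4.80% of all. Each motif was searched on both strands, and a match of letters is not a measured binding site.

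The libraries held between 10330581 and 18327890 counts on genes. VIM, CD44 and AXL, which mark this line, were at 396 CPM or more in every library. ESR1 was at 0 in 17 libraries, PGR at most at 1.77 CPM and CDH1 at most at 1.16 CPM, while GATA3 was at 5.25 to 11.5 CPM and so not near 0. Of the markers of other cell types, the fibroblast genes DCN, LUM and PDGFRA reached at most 0.495 CPM, and the leukocyte genes PTPRC and CD3E at most 0.202 CPM. CD14 was at 1.23 to 4.99 CPM and the endothelial gene PECAM1 at 0.954 to 15.1 CPM, while the endothelial genes CDH5 and VWF stayed at or below 0.0955 and 0.927 CPM. PECAM1 had a slope on the score of 0.39 ± 0.07 and CD14 of −0.04 ± 0.05 (SE, log2 per unit of score, n = 18), and their part in the results was not tested.

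The growth score varied within every condition, and most strongly in Jag1KO. In Jag1WT, replicates 1, 2 and 3 scored −0.57, 1.08 and −0.51. In siCtrl they scored −0.74, 1.00 and −0.26, and in siJag1 −0.98, 1.65 and −0.68. In these 3 conditions replicate 2 stood above both others. In Jag1KO the scores were −1.82, 0.83 and 0.99, in Jag1KO + rescue −0.88, 1.34 and −0.46, and in Jag1KO + ctrl 0.48, 1.08 and −1.55. Replicate 1 of Jag1KO and replicate 3 of Jag1KO + ctrl were thus the lowest of all libraries, and the marker level between the extremes of a condition differed 3.14-fold in Jag1WT and 6.99-fold in Jag1KO.

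**Figure D1:**
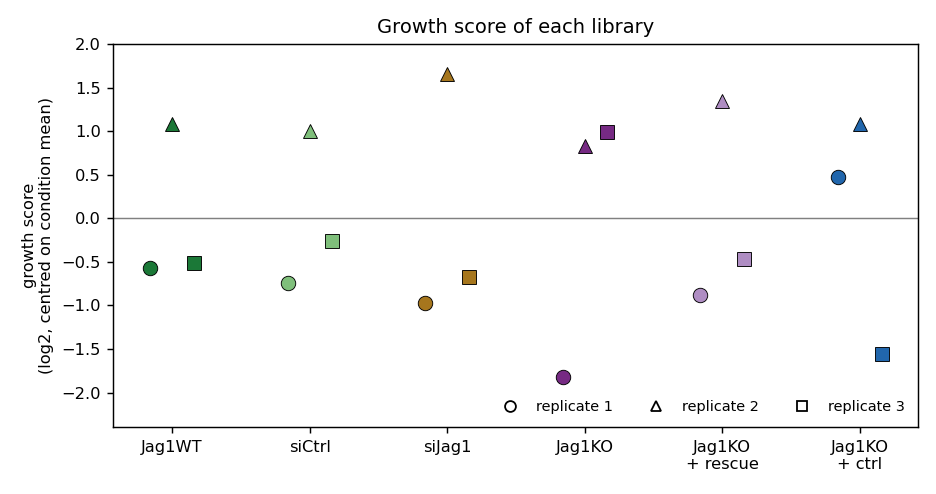
Growth score of each library (y axis, log2 scale, 0 being the mean of the condition) in the 6 conditions (x axis), with a symbol for each replicate number. Replicate 2 is the highest of its condition in 5 of 6 conditions, and the lowest library is replicate 1 of Jag1KO at −1.82.

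The score was tied to the replicate number. Its mean over the 6 conditions was −0.75 for replicate 1, 1.16 for replicate 2 and −0.41 for replicate 3, and replicate 2 was the highest in 5 of 6 conditions. An exact permutation test over all 46656 orders of the libraries within conditions, one-sided for a larger spread of these means, gave p = 0.00952. Without the siJag1 condition the same exact permutation test gave p = 0.0517, and with a score of S phase genes in place of the 6 markers p = 0.0572. Whether libraries with the same number shared a culture date, a Matrigel lot or a sequencing run is not given in the labels.

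The 4 library measures compared with the score did not pass a permutation test over the orders within conditions (adjusted p between 0.358 and 0.398, Benjamini-Hochberg over the 4). The total of counts had r = −0.39 (rho = −0.31), the number of genes with a count r = 0.25 (rho = 0.27), the share of the 100 most abundant genes r = −0.44 (rho = −0.33) and the share of ribosomal protein genes r = −0.26 (rho = −0.29), each over 18 libraries. With 2 libraries farthest from the median score left out, these r were −0.45, 0.11, −0.30 and −0.06, in the same order.

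The 6 score genes define the score and are shown for their levels. MKI67, a marker of cycling cells, was at 37.9, 115 and 33.1 CPM in Jag1WT and at 28.9, 207 and 289 CPM in Jag1KO. PLK1 was at 4.54, 17.0 and 5.35 CPM in Jag1WT and at 4.76, 28.5 and 40.7 CPM in Jag1KO. In both genes the highest and lowest replicate of each of these conditions lay further apart on the log2 scale than the means of the 2 conditions, and the conditions overlapped.

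JAG1 itself had a small positive slope on the score. It was at 433, 585 and 522 CPM in Jag1WT, at 116, 205 and 149 CPM in Jag1KO, at 534, 657 and 646 CPM in Jag1KO + rescue and at 110, 134 and 147 CPM in Jag1KO + ctrl. In siCtrl it was at 441, 626 and 531 CPM and in siJag1 at 166, 203 and 131 CPM. The groups compared did not overlap in any of the 3 comparisons of JAG1 status, and the JAG1 transcript was still present in the edited cells. Its slope on the score was 0.13 ± 0.05 (SE, log2 per unit of score, n = 18, adjusted p of limma 0.0308), with the same sign in 5 of 6 conditions. In the parental-derived libraries the slope of JAG1 was 0.19 ± 0.05 and in the clone-derived libraries 0.08 ± 0.06.

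The genes of mitosis rose most steeply. DLGAP5, which encodes a protein of the kinetochore fibres, was at 8.96, 32.7 and 8.74 CPM in Jag1WT, 9.69, 47.8 and 18.3 CPM in siCtrl and 12.8, 118 and 16.3 CPM in siJag1. In the clone-derived cultures it was at 4.76, 75.2 and 87.5 CPM in Jag1KO, 4.91, 47.7 and 9.14 CPM in Jag1KO + rescue and 95.2, 141 and 16.8 CPM in Jag1KO + ctrl. In 5 of the 6 conditions the replicates stood in the order of their scores, and in Jag1WT replicates 1 and 3 were nearly equal. Its slope of 1.25 ± 0.04 (SE, n = 18) was the largest of the genes tested. KIF20A, a kinesin of the central spindle, had a slope of 1.18 ± 0.07, the condensin subunit NCAPG of 1.11 ± 0.03, and the kinetochore protein NDC80 of 1.06 ± 0.06.

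Counted by the lists, the mitotic kinases and the chromosomal passenger complex were among the rising genes with 10 of 10 members (median slope 0.89), among them AURKA (0.99), NEK2 (0.98), AURKB (0.98) and BIRC5 (0.95). Of the spindle motors and cytokinesis genes 20 of 22 were rising (median 0.87), among them the kinesin KIF2C (1.05) and the cleavage furrow kinase CIT (1.01). Of the kinetochore and spindle checkpoint genes 17 of 25 were rising (median 0.78), including HJURP (1.02), the chaperone of the centromeric histone, and CENPE (0.97). The median slope of all 12797 genes was 0.00, and 1.12% of them were rising.

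Other cell cycle groups rose less. Of the condensin and chromosome structure genes 5 of 12 were rising (median 0.53), and of the homologous recombination and Fanconi genes 7 of 19 (median 0.51), led by the helicase BRIP1 (0.81) and the exonuclease EXO1 (0.74). The list of cyclins, cyclin-dependent kinases and their regulators held 4 of 18, among them CCNB2 (1.02), the phosphatase CDC25C (0.87) and CCNA2 (0.85). The regulators FOXM1 (0.85), MYBL2 (0.83) and E2F8 (0.77) were rising, 3 of 18 measured genes of their list. The anaphase-promoting complex list held 3 of 11, with its activator CDC20 at 0.70 and the E2 enzyme UBE2C at 0.68.

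The replication genes had smaller slopes on this score, which is built from genes that peak in G2 and mitosis. The order of mitotic over replication genes is a description only, and its dependence on the choice of markers was not tested. Of 35 genes for origin licensing and the replication fork, CDC45 (0.77) and RFC3 (0.59) were rising, the median slope was 0.40, and 30 of the 35 had a positive slope with an FDR below 0.05 and no threshold on its size, beside 23.5% of all genes tested. Of 43 S phase genes of the Seurat list 9 were rising (median 0.38), and 35 had a positive slope at this FDR. Of 15 nucleotide synthesis genes 5 were rising, led by thymidylate synthase TYMS (0.86) and the ribonucleotide reductase subunit RRM2 (0.79). TYMS was at 20.2, 54.2 and 22.0 CPM in Jag1WT and at 26.3, 141 and 120 CPM in Jag1KO. MCM2, a subunit of the replicative helicase, and PCNA, the sliding clamp of the DNA polymerases, had slopes of 0.12 ± 0.07 and 0.19 ± 0.08 and were not called. The 10 measured replication-dependent histone genes had slopes below 0 (median −0.15), and the libraries were made from polyadenylated RNA, which most of these transcripts are not.

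The genes that hold cells out of the cycle moved less. CDKN2C, an inhibitor of CDK4 and CDK6, was the only rising gene (slope 0.75 ± 0.11) among 22 measured CDK inhibitors and quiescence genes, whose median slope was −0.07. With no threshold on the slope, 4 of the 22 had a positive and 10 a negative slope at an FDR below 0.05. Of all genes tested, 23.5% and 25.0% did so. CDKN1A had a slope of 0.05 ± 0.06 and CDKN1B, a second inhibitor of cyclin-dependent kinases, of −0.17 ± 0.03. CCND2, a D-type cyclin of G1, had −0.58 ± 0.05 and lay just outside the falling genes.

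**Figure D2:**
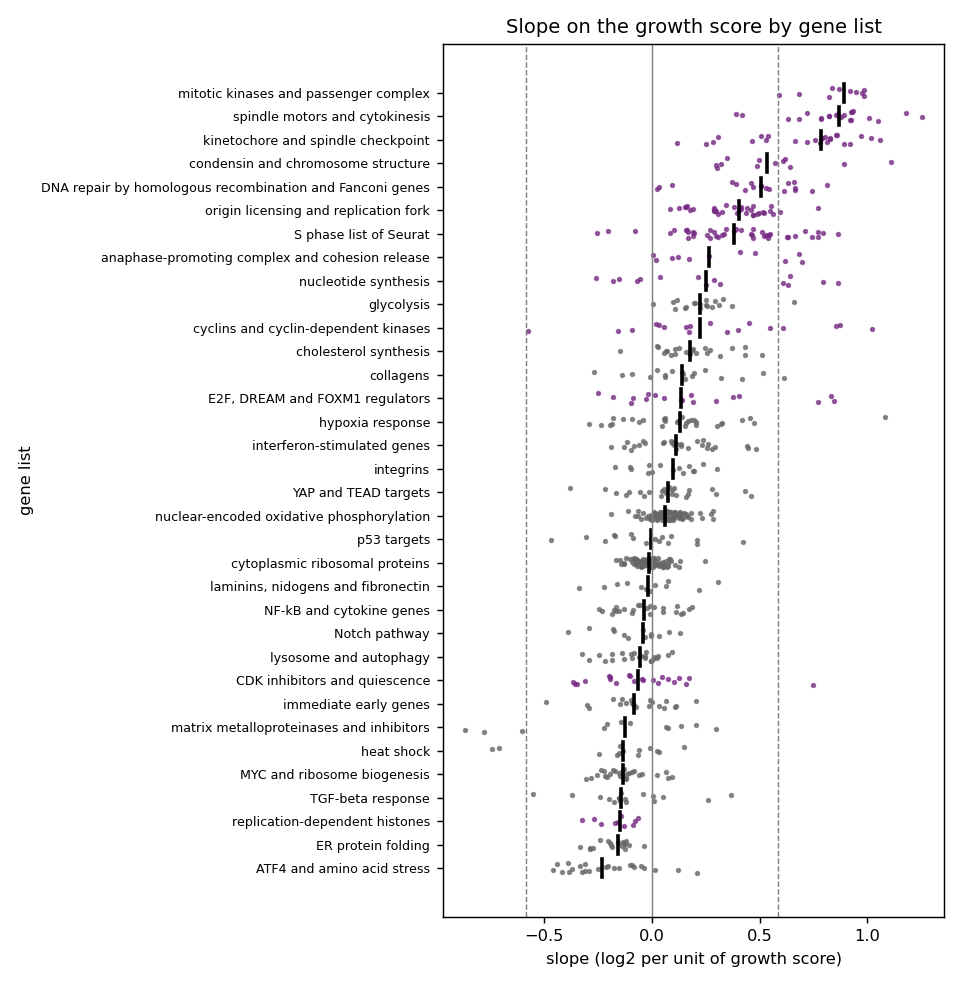
Slope of each gene on the growth score (x axis, log2 per unit of score) in the lists with at least 10 genes tested (y axis), with cell cycle lists in purple, other lists in grey, a black bar at the median and dashed lines at a 1.5-fold change per unit. The mitotic lists lie furthest to the right with medians of 0.78 to 0.89, and the ATF4 list has the lowest median at −0.23.

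Of the 143 rising genes, 79 were in a cell cycle list. Of the other 64, a further 19 are known for mitosis, the spindle or division and 7 for replication, repair or chromatin assembly, as assigned by hand after the values were seen. This left 38 genes that were in no such list and not so assigned, at slopes between 0.59 and 1.09. The assignment by hand was not complete, so 38 is not a count of genes without a role in cell division. The 38 include PRR11, DEPDC1 and PIMREG, but also genes with known roles elsewhere. The latter were singled out below after their values were seen.

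CA9, the hypoxia-induced carbonic anhydrase of the cell surface, had the largest slope among the genes of other roles in the lists (1.08 ± 0.17). It was at 6.82, 20.3 and 32.5 CPM in Jag1WT, 7.07, 25.6 and 10.4 CPM in siCtrl, 2.89, 16.1 and 2.10 CPM in siJag1, 1.11, 25.2 and 28.9 CPM in Jag1KO, 0.341, 34.1 and 11.1 CPM in Jag1KO + rescue and 136, 112 and 28.0 CPM in Jag1KO + ctrl. It followed the score less closely than the mitotic genes, with 71.5% of its within-condition sum of squares on the score against 94.6% for KIF20A. The rest of the hypoxia list did not follow CA9 to this degree, since CA9 was 1 of 30 measured genes called and the median slope was 0.13, with 15 positive and 4 negative slopes at an FDR below 0.05. Glycolysis genes were higher in cultures with a higher score, though by little: ALDOC was the only one of 19 past the threshold (0.66 ± 0.08), the median was 0.22, and 18 had a positive slope at an FDR below 0.05, where 23.5% of all genes had one. LDHA (0.37 ± 0.05) and PGK1 (0.33 ± 0.05) were among these 18.

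AKAP12, a scaffold that anchors protein kinase A at the membrane, was the most abundant rising gene, with a slope of 0.93 ± 0.11. It was at 115, 462 and 140 CPM in Jag1WT, at 46.2, 653 and 340 CPM in Jag1KO and at 57.2, 490 and 87.9 CPM in Jag1KO + rescue. Replicate 2 was thus the highest in these conditions, including Jag1KO, where the score of replicate 3 was above that of replicate 2. NFKBIZ, an atypical IκB protein, showed the same order with 97.3, 466 and 227 CPM in Jag1KO (slope 0.63 ± 0.10).

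LCP1, the actin-bundling protein L-plastin, had a slope of 0.61 ± 0.06 and was at 56.5, 131 and 72.5 CPM in Jag1WT and at 60.6, 301 and 288 CPM in Jag1KO. ACAT2, an acetyl-CoA acetyltransferase (0.74 ± 0.06), and the carboxypeptidase CPA4 (0.86 ± 0.07) followed the score in every condition. RAB3B (0.82), a GTPase of vesicle exocytosis, and the cytidine deaminase APOBEC3B (0.82) also rose. The secreted factors FGF1 (0.74), PTN (0.65) and ECM1 (0.59) rose as well, FGF1 and PTN from means of only 2.39 and 3.89 CPM. COL17A1, a collagen of epithelial hemidesmosomes, was the 1 rising gene of 18 measured collagens (0.61 ± 0.05), beside 1.12% of all genes tested. TRAC, a T cell receptor constant gene, rose from a mean of 4.98 CPM (0.61) although the leukocyte genes PTPRC and CD3E were near 0.

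Of the 143 rising genes 142 had a positive slope in each of the 6 conditions, and the exception was PPFIA4 (−0.04 in Jag1WT). FAM72B, FAM72C and FAM72D are near-identical copies, as are KIF4A and KIF4B, so that counts can be split between them and their values are uncertain.

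The falling genes were few and were led by secreted proteases. MMP3 (stromelysin) was at 59.3, 23.2 and 36.9 CPM in Jag1WT, at 98.2, 18.9 and 16.8 CPM in Jag1KO and at 35.2 CPM in replicate 3 of Jag1KO + ctrl, with 13.7 and 3.83 CPM in replicates 1 and 2. The replicate with the highest score was the lowest in MMP3 in all 6 conditions, and the slope was −0.87 ± 0.07 (SE, n = 18). MMP1, the interstitial collagenase, was at 7006, 4770.2 and 6383 CPM in Jag1WT, at 7493, 3169.7 and 3325 CPM in Jag1KO and at 2287, 1150.1 and 7866 CPM in Jag1KO + ctrl, with a slope of −0.60 ± 0.08. MMP10, a second stromelysin, had −0.78 ± 0.16, with −1.91 in Jag1KO + ctrl, −0.94 in siJag1 and −0.19 to −0.50 in the others. These 3 were the falling genes among 12 measured metalloproteinases and their inhibitors, beside 0.109% of all genes tested. With no threshold on the slope, 2 of the 12 had a positive and 7 a negative slope at an FDR below 0.05. Of all genes tested, 23.5% and 25.0% did so. The membrane-bound MMP14 had a slope of 0.08 ± 0.05 and the inhibitor TIMP1 of −0.15 ± 0.03.

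The other falling genes had several roles. SERPINB2, which encodes plasminogen activator inhibitor 2, was at 1638, 918 and 1024 CPM in Jag1WT, at 2951, 1287 and 1041 CPM in Jag1KO, at 7777, 2283 and 4527 CPM in Jag1KO + rescue and at 285, 259 and 2093 CPM in Jag1KO + ctrl (slope −0.70 ± 0.08). The stress-induced chaperone genes HSPA1A (−0.74 ± 0.09) and HSPA1B (−0.71 ± 0.08) are near-identical copies and may share reads. They were the only falling genes of 13 in the heat shock list, beside 0.109% of all genes tested. With no threshold on the slope, 1 of the 13 had a positive and 4 a negative slope at an FDR below 0.05, beside 23.5% and 25.0% of all genes. ASS1, the argininosuccinate synthase of arginine synthesis, had −0.70 ± 0.06 and was at 16.9, 8.04 and 17.5 CPM in Jag1WT and at 17.9, 6.57 and 6.11 CPM in Jag1KO. The gel-forming mucin gene MUC5AC (−0.68), the calcium-binding S100P (−0.63), TLR9 (−0.67), IFITM10 (−0.68), PARM1 (−0.67), the sialyltransferase ST6GALNAC3 (−0.73) and AOC2 (−0.63) completed the 14. All 14 had a negative slope in each of the 6 conditions.

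**Figure D3:**
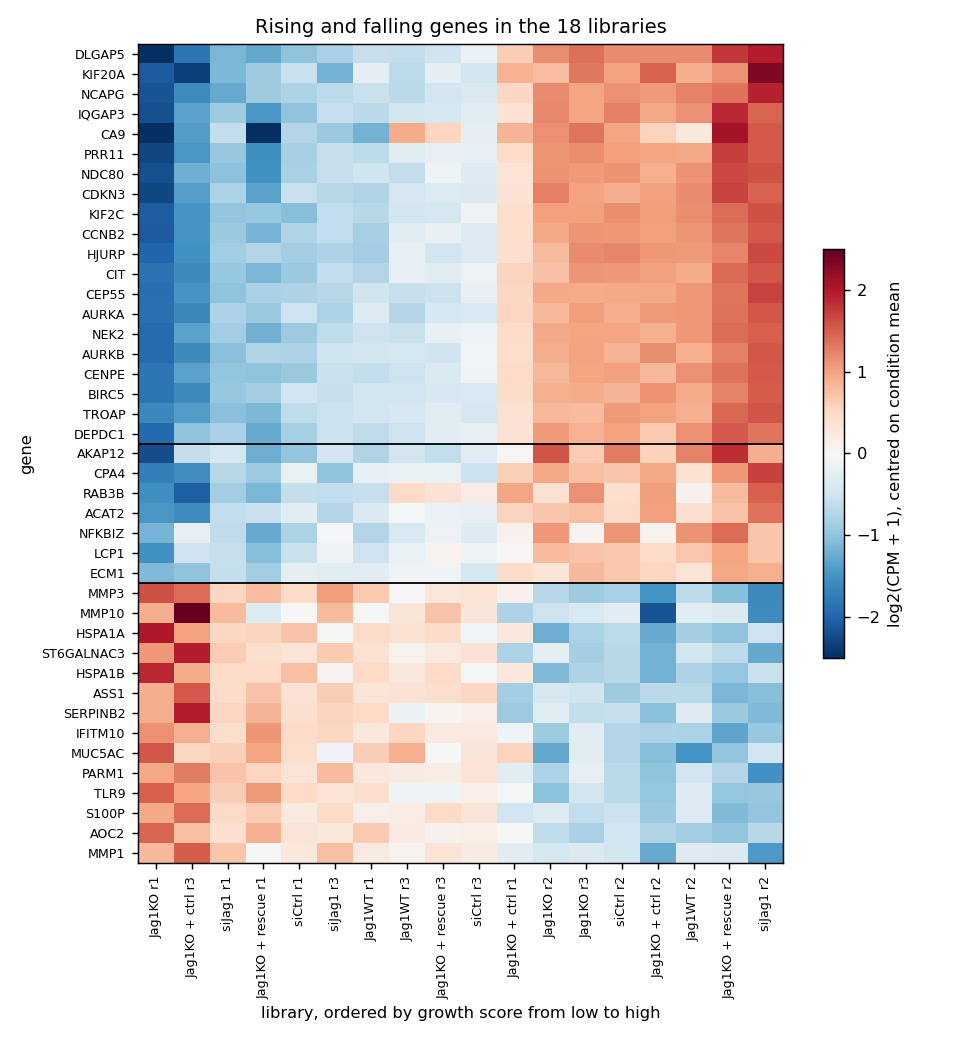
Centred log2(CPM + 1) values (colour, ending at 2.5 and −2.5) of the 20 rising genes with the largest slopes at a mean of at least 10 CPM, of 7 further rising genes outside the cell cycle lists and of the 14 falling genes (rows) in the 18 libraries ordered by growth score (columns, r for replicate). The rising genes turn from blue to red and the falling genes from red to blue along this order, and CA9 and MMP10 follow it less evenly than DLGAP5.

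**Figure D4:**
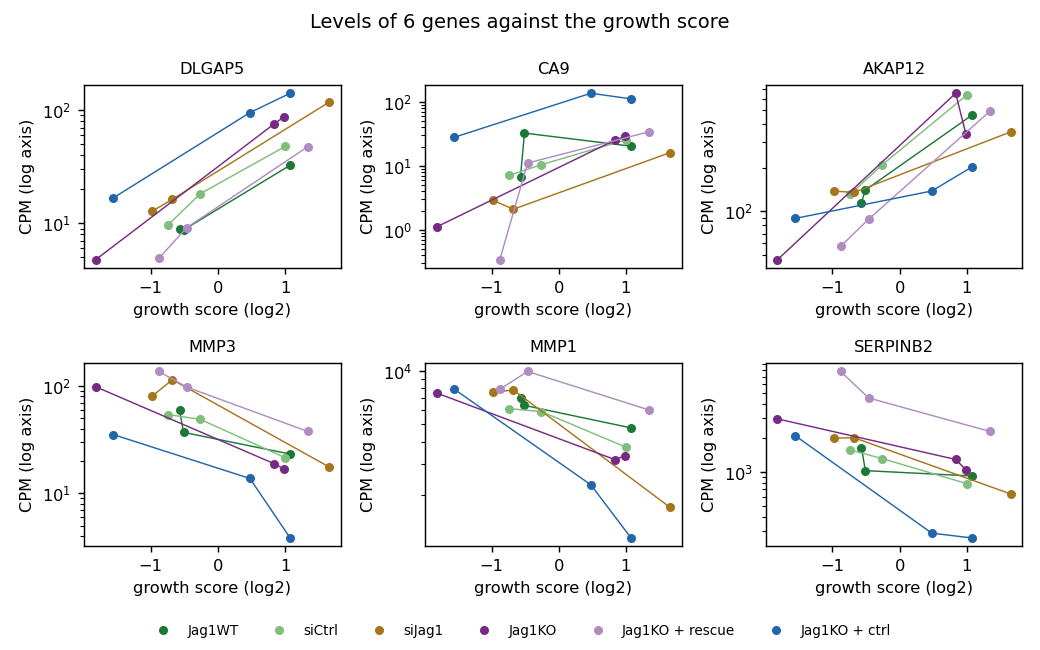
Level of 6 genes (y axes, CPM on a log axis) against the growth score (x axes), with a line joining the 3 libraries of each condition. DLGAP5, CA9 and AKAP12 slope upward (1.25, 1.08 and 0.93), and MMP3, MMP1 and SERPINB2 downward (−0.87, −0.60 and −0.70).

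The thresholds cut a continuous range. DBF4B and FAM72D were just inside the rising genes, both at a slope of 0.59, and CEP128 and P3H2 were just outside at 0.58. AOC2 and MMP1 were just inside the falling genes at −0.63 and −0.60, with CCND2 and KCNJ14 just outside at −0.58 and −0.56. With no threshold on the slope, 3010 genes (23.5%) rose and 3195 (25.0%) fell at an FDR below 0.05. The score took 54.8% of the whole within-condition sum of squares and a median of 34.7% per gene, against 96.1% in the rising and 86.4% in the falling genes, which had been chosen for it. The first principal component of the centred values took 55.7%.

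Among the lists outside the cell cycle, slopes were mostly small, and the counts that follow use an FDR below 0.05 with no threshold on the slope, at which 23.5% of all genes had a positive and 25.0% a negative slope. Of 24 measured genes of ATF4 and amino acid stress 15 had a negative slope and 0 a positive one (median −0.23). The asparagine synthetase ASNS had −0.44 ± 0.08, from −0.08 in Jag1WT to −1.03 in Jag1KO + ctrl. The cystine transporter SLC7A11 had −0.20 ± 0.07, with −0.60 in Jag1KO + ctrl, −0.28 in siJag1 and −0.02 to −0.06 in the other 4 conditions, so that its slope lay mainly in those 2 conditions. Of the 19 ER folding genes 16 had a negative slope (median −0.16). Among these CANX (−0.14 ± 0.03) was negative in all 6 conditions, while HSPA5 (−0.24 ± 0.06) was at 0.10 in Jag1WT and 0.03 in siCtrl. Of the 29 genes of MYC and ribosome biogenesis 22 had a negative slope and 1 a positive one (median −0.14). None of the genes of these 3 lists passed the threshold of 1.5-fold per unit. Of 81 ribosomal protein genes 11 had a positive and 16 a negative slope (median −0.02), and of 78 nuclear-encoded oxidative phosphorylation genes 32 had a positive and 2 a negative slope (median 0.06).

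The matrix and signalling lists were mixed by the same count. The integrins had 6 positive and 3 negative slopes of 15 (median 0.10), with ITGB1 at −0.02 ± 0.02, and the collagens 11 and 2 of 18 (median 0.14). The laminins, nidogens and fibronectin had 2 positive and 4 negative slopes of 12 (median −0.02). The Notch pathway list had 1 and 5 of 13 (median −0.04), the positive one being JAG1, with the receptor NOTCH2 at −0.03 ± 0.02. The TGF-beta list had 2 and 9 of 17 (median −0.14), with TGFBR2 at 0.00 ± 0.05. Interferon-stimulated genes had 15 positive and 3 negative slopes of 29 (median 0.11), cholesterol synthesis genes 14 and 1 of 24 (median 0.18), and YAP and TEAD targets 10 and 4 of 24 (median 0.07). Lysosome and autophagy genes had 1 and 11 of 24 (median −0.06), p53 targets 2 and 6 of 17 (median 0.00), NF-kB and cytokine genes 1 and 2 of 24 (median −0.04) and immediate early genes 0 and 5 of 21 (median −0.09). Of all lists in this paragraph, the collagens alone had a gene past the threshold of 1.5-fold per unit, COL17A1.

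The genes were also chosen apart in the 9 parental-derived and in the 9 clone-derived libraries, which share no library. This split is not an independent test of the pattern, because both lists were chosen on the same marker score. Replicate 2 also scored highest in every parental-derived condition and in Jag1KO + rescue and Jag1KO + ctrl. Between the groups, equally numbered libraries had r of their deviations from −0.46 (siJag1 and Jag1KO) to 0.80 (siJag1 and Jag1KO + ctrl). The overlap is therefore given as a description. In the parental-derived libraries 143 genes rose (1.12% of those tested) and in the clone-derived ones 149 (1.16%). Both held 117 of them, which is 81.8% of the first and 78.5% of the second list. The 143 genes chosen in the parental-derived libraries had a median slope of 0.75 in the clone-derived ones, where 142 of them were positive. The exception was EGR1, an immediate early gene, at 0.62 and −0.07 ± 0.19.

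The falling genes were shared less evenly. In the parental-derived libraries 8 genes fell (0.0625%) and in the clone-derived ones 19 (0.148%), and 7 were in both (87.5% and 36.8%). These 7 were ST6GALNAC3, MUC5AC, IFITM10, MMP10, MMP3, PARM1 and ASS1, and MMP1 was chosen only in the parental-derived libraries. All 8 had negative slopes in the clone-derived libraries, and all 19 had negative slopes in the parental-derived ones. CCND2, GDF15, INHBA and INHBE were among the 19.

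No gene had a slope that differed between the parental-derived and clone-derived cultures at an FDR below 0.05 in the interaction test of limma. The counts at this FDR were also 0 with edgeR and with DESeq2. By limma, 266 of 12803 genes had an unadjusted p below 0.05, a smaller share than the 0.05 that no differences at all would give. Leaving out 1 library at a time, this count ranged from 188 to 1186. The smallest p was that of IGFBP3, a binding protein of insulin-like growth factors, at −0.55 ± 0.05 and −0.27 ± 0.04 (difference 0.28 ± 0.07, adjusted p = 1.00 by limma with Benjamini-Hochberg adjustment).

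**Figure D5:**
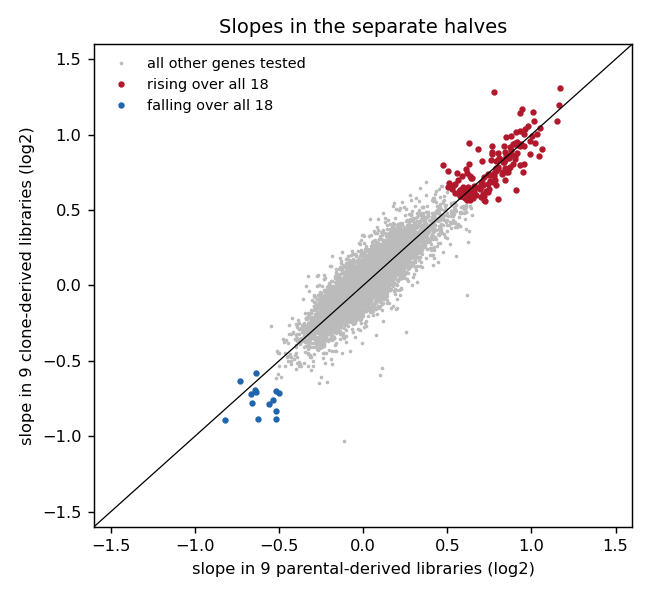
Slope of each gene on the growth score in the 9 parental-derived (x axis) and the 9 clone-derived libraries (y axis), in log2 per unit of score, with the line of equal slopes. The 143 rising genes (red) and 14 falling genes (blue), which were chosen over all 18 libraries, lie at opposite ends along this line.

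The scores matter for the comparisons of JAG1 status, because the uncentred mean of the 6 markers also differed between conditions, though by less than the range of the cultures within any condition compared. It was 4.82 ± 0.94 (log2, SD, n = 3) in Jag1WT and 5.89 ± 1.58 in Jag1KO, which gave p = 0.40 in a two-sided exact permutation test. It was 4.73 ± 1.18 in Jag1KO + rescue and 6.45 ± 1.38 in Jag1KO + ctrl (exact permutation p = 0.20), and 5.23 ± 0.90 in siCtrl and 5.68 ± 1.44 in siJag1 (exact permutation p = 0.60). With 3 libraries against 3 this test cannot go below 0.10. The rising genes had a median log2 fold change of −0.85 in Jag1WT against Jag1KO, −1.32 in Jag1KO + rescue against Jag1KO + ctrl and −0.36 in siCtrl against siJag1, and the medians over all genes were 0.00, 0.00 and −0.01.

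The centred score was then added to the fit of the conditions. It left the fold changes as they were and lowered their median SE from 0.18 to 0.14. Without the score, 136 genes (1.06%) were called between Jag1WT and Jag1KO, 2085 (16.3%) between Jag1KO + rescue and Jag1KO + ctrl and 6 (0.0469%) between siCtrl and siJag1, at an FDR below 0.05 and more than a 1.5-fold change. With it, 508 (3.97%), 2895 (22.6%) and 29 (0.227%) were called, and all genes called without the score were among them. Of the 143 rising genes, 112 were called lower in Jag1WT than in Jag1KO with the centred score and 0 without it, and 134 and 8 were called lower in Jag1KO + rescue than in Jag1KO + ctrl. This fit takes the mean score of each condition as known, so its SE leaves out how far 3 other cultures would have moved that mean, and the calls of score-following genes are too many by construction. The count of 508 was 1030 without Jag1KO replicate 1 and 201 without Jag1KO replicate 3, that of 2895 was 4358 without Jag1KO + ctrl replicate 3 and 1916 without replicate 2, and that of 29 ranged from 6 without siCtrl replicate 1 to 117 without siJag1 replicate 1.

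With the uncentred marker level in the fit, which compares the conditions at an equal level of the 6 markers and assumes the same slope between as within conditions, 250 genes (1.95%) were called between Jag1WT and Jag1KO, 1203 (9.40%) between Jag1KO + rescue and Jag1KO + ctrl and 16 (0.125%) between siCtrl and siJag1. The 250 held 132 of the 136 genes called without a score, and the 16 held all 6. In the rescue, 990 of the 2085 were kept. Of the 143 rising genes, NOX5, a NADPH oxidase, and SPOCD1 were called higher and PKMYT1 lower in Jag1WT than in Jag1KO. In the rescue 7 were higher and 5 lower, and for siCtrl and siJag1 0 were called. These calls stand beside the 1.95%, 9.40% and 0.125% of all genes given above. The fit takes out the marker level that the rising genes were chosen to follow, so these counts do not test them. Of the falling genes MUC5AC, HSPA1A and HSPA1B were lower in Jag1WT than in Jag1KO, and ST6GALNAC3, MMP3 and SERPINB2 were higher and MUC5AC lower in Jag1KO + rescue than in Jag1KO + ctrl.

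Equally numbered libraries of siCtrl and siJag1 had r of 0.539, 0.518 and 0.261 between their deviations, which include the growth score. In this comparison the number of genes called with the centred score was 44 with the replicate number as a block in place of 29. With the uncentred marker level it was 29 in place of 16. With the uncentred level and the block, the rescue comparison called 194 genes in place of 1203. Its equally numbered libraries had r of −0.21, 0.34 and 0.23 between their deviations, and no label says whether they were paired.

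The following genes of JAG1 status, of which COL6A3 and TGFBI were singled out after their values were seen, were not among those chosen by the growth score. JAG1 was higher in the cultures with JAG1 at equal marker level in all 3 comparisons, with log2 fold changes of 1.87 ± 0.17 for Jag1WT against Jag1KO, 2.45 ± 0.18 for the rescue cultures and 1.73 ± 0.17 for siCtrl against siJag1 (adjusted p of limma 7.48e-06, 3.04e-06 and 0.000122). COL6A3, a chain of collagen VI, was higher in all 3 as well, by 3.70 ± 0.24, 2.14 ± 0.25 and 2.29 ± 0.23 (adjusted p of limma 3.28e-07, 0.00132 and 0.000129), and had a slope on the score of 0.06 ± 0.06. TGFBI, a matrix protein induced by TGF-beta, had a slope of 0.37 ± 0.04 and was called at equal marker level in all 3 (1.05 ± 0.15, 0.80 ± 0.16 and 0.89 ± 0.14). Without a score its log2 fold changes were 0.66 ± 0.36, 0.17 ± 0.36 and 0.72 ± 0.36, and it was called in none (adjusted p of limma 0.712, 0.741 and 0.998), so that most of its value in the rescue came from the score term. COL18A1 had 1.92 ± 0.17 and 1.25 ± 0.16 in the first and the last comparison and −0.51 ± 0.18 in the rescue, where it was not called (adjusted p of limma 0.0541).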

How the data were processed

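RNA from 18 spheroid cultures was sequenced as stranded mRNA libraries. The authors aligned the reads to hg38 and counted them per gene, and their processing notes name featureCounts, edgeR 3.28.0 and R 3.6.1. The counts per gene that they deposited are not normalized, and the CPM that the authors deposited are a signal, namely these counts divided by the TMM-scaled library size (factors between 0.931 and 1.07), as was checked on both tables. RPKM were not used.

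Each slope is the coefficient of the growth score in a limma fit (version 3.58.1, R 4.3.3) of log2(CPM + 1) on condition and score, with a mean-variance trend and Benjamini-Hochberg adjustment over all genes tested. The genes, lists and tests were chosen with earlier results of these data known. Genes named are the score genes and JAG1, the 10 largest slopes in each direction at a mean of 10 CPM or more, up to 4 genes per list, the 3 smallest p in each direction of the slope difference, and 5 genes per direction called with the score alone, not all of which are printed, with others singled out after their values were seen (MCM2, PCNA, CDKN1B, LDHA, PGK1, MMP14, TIMP1, COL6A3, TGFBI, INHBA, INHBE, GDF15 and the other members of the 157 genes). The slope fit was tested on simulated counts in which genes varied independently apart from the slopes given to some of them. It thus does not show how the fit behaves where many genes vary together, as here. Promoters are those of RefSeq (GRCh38.p14), which lists 117 of the 143 rising and 10 of the 14 falling genes.

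To see whether replicate numbers pair libraries, the deviations from the condition means were correlated over all genes between equally numbered libraries. In siCtrl and siJag1 r was 0.539, 0.518 and 0.261, and in Jag1WT and Jag1KO it was 0.632, 0.667 and −0.00. In the rescue comparison r was −0.21, 0.34 and 0.23. The deviations include the growth score, so r cannot show whether libraries shared a batch. Alternatives were the pseudocount, the filter, the scaling, edgeR and DESeq2 on the counts, the block, an S phase score, other score terms and leaving out libraries. Mitochondrially encoded genes, CDKN2A, CDKN2B, GAS1 and CBS were not analysed here. All replicate pairs differed by more than sampling noise. P-values refer to the spread between these cultures, and in every fit that holds the score only to the spread that the score leaves.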

Additional observations from a re-analysis of the deposited data

How the results depend on the processing

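The rising genes numbered 138 to 147 and the falling genes 11 to 16 when each library was left out in turn, and the count of slopes that differed between parental-derived and clone-derived cultures was 0 each time. None of the 157 genes changed the direction of its slope under the alternatives run. These reuse the libraries from which the genes were chosen, so the kept direction is no test of them. With a pseudocount of 2, 27 of the 157 were no longer called, and with the replicate block 19. The falling genes were 30 with edgeR and 33 with DESeq2. With the replicate block there were 190 rising genes, of which 129 were among the 143, and 24 falling genes, of which 9 were among the 14. With an S phase score, which spans a smaller range, 727 genes rose and 339 fell, and the spread of the means by replicate number was 0.632, against 1.92 with the 6 markers, which became 1.77 without siJag1. With no threshold on the slope 3010 and 3195 genes were called.

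The JAG1 comparisons depended on the score term. Between Jag1WT and Jag1KO, 136 genes were called with no score, 250 with the uncentred level, 300 with that level and the replicate block and 152 with that level without the 2 lowest-scoring libraries. With the centred score, 337 were called with the S phase score, 1143 without the 2 lowest-scoring libraries, 278 without replicate number 2, and 201 to 1030 leaving out 1 library. Between Jag1KO + rescue and Jag1KO + ctrl the counts were 1203 with the uncentred level, 194 with the block added and 2401 with that level without the 2 lowest-scoring libraries. With the centred score they were 2935 with the replicate block, 4356 without the 2 lowest-scoring libraries and 1916 to 4358 leaving out 1 library. Between siCtrl and siJag1 they were 6 with no score and 16 with the uncentred level, and with the centred score 16 with the S phase score, 17 with no filter, 44 with the replicate block, 74 with DESeq2, 1 without replicate number 2 and 6 to 117 leaving out 1 library. The causes were not tested. The subsets without the 2 lowest libraries or replicate number 2, and the uncentred level with the block, were chosen after seeing the data. With 3 cultures per condition, differences in mean growth state between conditions cannot be told apart from spread between cultures, and genes of a few CPM have wide errors.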
